A study of Mus musculus with 30 samples.

Results

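The SUMO modifiers and their enzymes were followed here across the hippocampi of 30 mice. SUMO proteins are small relatives of ubiquitin that are joined to lysines of other proteins. The members were set by name, in a list chosen by the measured difference of Sumo3 between these mice: the modifiers Sumo2 and Sumo3, the activating enzyme subunits Sae1 and Uba2, and the SUMO proteases Senp2, Senp3, Senp5 and Senp6. Of these 8 genes, 7 were matched to probes, 13 probes in all, out of 16593 genes and 25697 probes on the array, and Uba2 was not analysed here. All 13 probes passed the filter on dim signals, detection on at least 15 of the 30 arrays, as did 12588 probes of the whole array.

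All animals were 12-week-old males of the outbred NMRI stock. They were sorted with a 6 Hz stimulation protocol, which evokes seizures, under phenytoin, an antiseizure drug that acts on sodium channels. By the labels the 15 resistant mice were non-responders to phenytoin and the 15 responder mice served as controls, all selected from phenotyped animals, and no untreated group was compared. Since the test itself formed the groups, traces of its seizures or drug doses and a prior state of resistance cannot be told apart. One Illumina bead array was used for the hippocampal RNA of each mouse, and signals are given below as background-corrected, quantile-normalised log2 values.

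SUMO is charged by the activating enzyme, a dimer of Sae1 and Uba2, and then passed on to the target, often with the help of a ligase. Proteases of the Senp family trim the SUMO precursors and take SUMO off its targets. SUMO2 and SUMO3 are nearly identical once processed and can form chains. In neurons, SUMO is known to modify kainate receptors and potassium channels, and mice short of Senp2 have been described with seizures.

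The comparison of resistant with responder mice asked whether expression of this machinery differs with the response to phenytoin, and whether Sumo3 stands apart from Sumo2 and the enzymes. Both Sumo3 probes lay lower in resistant mice, at 0.842 and 0.906 times the responder level. The Sumo2 probe lay on the other side, at 1.06 times the responder level. The activating subunit Sae1 was level on its brightest probe, at 0.998 times, and all 7 probes of the proteases lay higher, from 1.04 to 1.22 times. Of all 12588 probes that passed the filter, 46.2% lay lower in resistant mice. None of the 13 probes passed the 5% false discovery threshold. Sumo3 was known to differ between these groups when the members were chosen, so its difference and those set beside it are a description and support nothing by themselves.

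The brighter Sumo3 probe, ILMN_2776230, ran from 9.46 to 10.31 with a median of 9.95 in resistant mice. In responder mice it ran from 9.90 to 10.38 with a median of 10.18. The groups overlapped, but 5 of the 15 resistant mice lay below the lowest responder, and 14 of 15 lay below the responder median. Resistant mice averaged 9.92 ± 0.21 and responders 10.17 ± 0.15 (mean ± SD over 15 mice in each group). The log2 difference was -0.25 with an SE of 0.06 and a 95% interval from -0.38 to -0.12. In the limma fit over all 12588 probes its adjusted p was 0.31, with 13 probes of smaller p. In whole hippocampus, fewer cells that carry a transcript and less of it per cell cannot be told apart.

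The second Sumo3 probe, ILMN_2776231, ran from 9.05 to 9.89 with a median of 9.65 in resistant mice. In responder mice it ran from 9.46 to 9.99 with a median of 9.74. It lay below the responder median in 13 of 15 resistant mice, and 3 of them lay below the lowest responder. In log2 units the groups differed by -0.14 (SE 0.06, limma adjusted p = 0.63). Resistant replicate 15 was the lowest of all mice on both probes, at 9.46 and 9.05, and without that mouse the differences of the brighter and the second probe were -0.21 and -0.10.

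Sumo2 ran from 11.81 to 12.14 with a median of 11.97 in resistant mice and from 11.72 to 12.00 with a median of 11.89 in responder mice. Here the resistant mice sat on the high side: 12 of 15 lay above the responder median and 5 above the highest responder. In log2 units the groups differed by 0.09 (SE 0.03, limma adjusted p = 0.532). Sumo2 lay higher and both Sumo3 probes lower with quantile normalisation, in the authors' processed values and under median scaling.

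**Figure D1:**
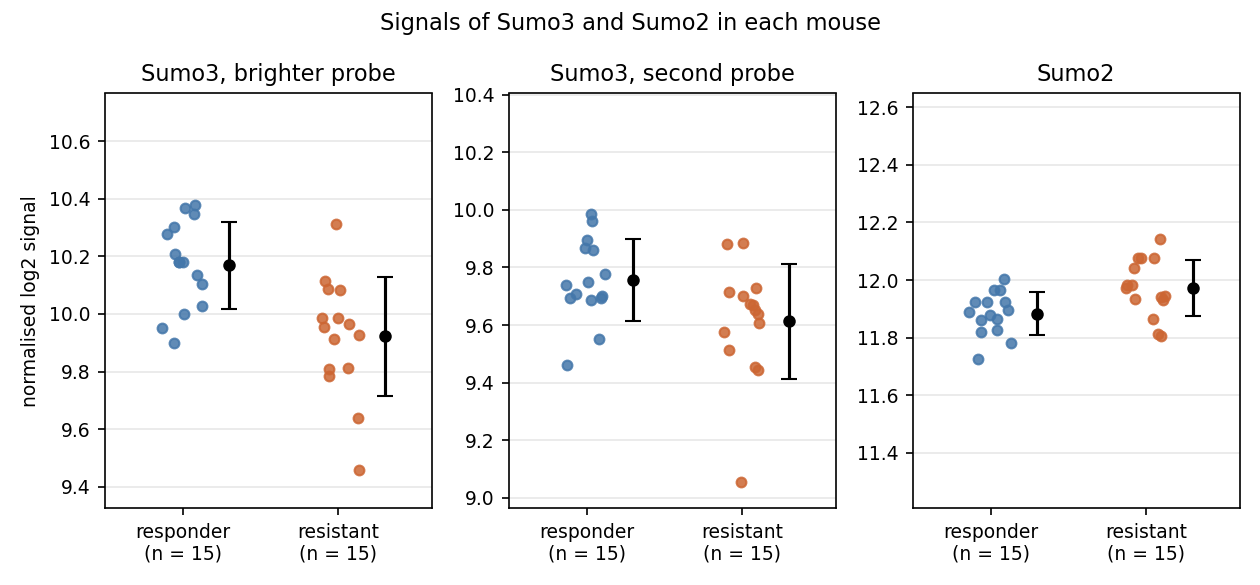
Normalised log2 signal (vertical axis, the same span in each panel) of both Sumo3 probes and of Sumo2 in each of 15 responder and 15 resistant mice. Points are mice and the black marks give the mean and SD. The resistant mice sit lower for Sumo3 and slightly higher for Sumo2, with overlap in every panel.

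The values as deposited before normalisation showed the same sides for the paralogs. The brighter Sumo3 probe averaged 10.10 ± 0.17 in resistant mice and 10.28 ± 0.20 in responders (unprocessed log2 signal, mean ± SD, 15 mice per group), and Sumo2 averaged 12.03 ± 0.11 and 11.90 ± 0.18.

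Sae1, the subunit that with Uba2 charges SUMO at the start of the cascade, had 3 probes and showed no difference beyond the spread between mice on any. Its brightest probe ran from 12.06 to 12.38 in resistant and from 12.08 to 12.51 in responder mice, with medians of 12.27 and 12.28. The log2 difference was -0.0022 with a 95% interval from -0.08 to 0.07. The other probes lay at 0.0013 and -0.04, the latter on the dimmest probe, whose interval was wider, from -0.26 to 0.18. The sign of the Sae1 differences changed between settings.

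Of the proteases, Senp2, which acts on all SUMO forms, read 10.01 ± 0.09 in resistant and 9.96 ± 0.10 in responder mice. Its log2 difference was 0.05 with a 95% interval from -0.03 to 0.13. Senp3, a protease of the nucleolus that prefers SUMO2 and SUMO3, read 9.31 ± 0.10 against 9.24 ± 0.12, a difference of 0.07 with an interval from -0.02 to 0.16. These intervals hold 0, and 12 and 13 of the 15 resistant mice lay above the responder median.

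Senp5, a relative of Senp3 with the same preference, lay at 0.17, 0.07 and 0.13 on its 3 probes. Its brightest probe ran from 6.11 to 6.99 in resistant and from 5.98 to 7.03 in responder mice, so the resistant range lay within that of responders. Senp6, which trims chains of SUMO2 and SUMO3, lay at 0.17 (SE 0.09) on its brighter probe and at 0.28 (SE 0.10) on the other. On the latter, 14 of 15 resistant mice exceeded the responder median. That probe was close to the detection limit, with detection on 14 resistant and 8 responder arrays, and its limma adjusted p was 0.476. In the authors' processed values, which have no background correction, the brightest Senp5 probe lay at 0.08 and the Senp6 probes at 0.05 and 0.08. The adjusted p of the 11 member probes other than Sumo3 ran from 0.476 to 0.998.

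**Figure D2:**
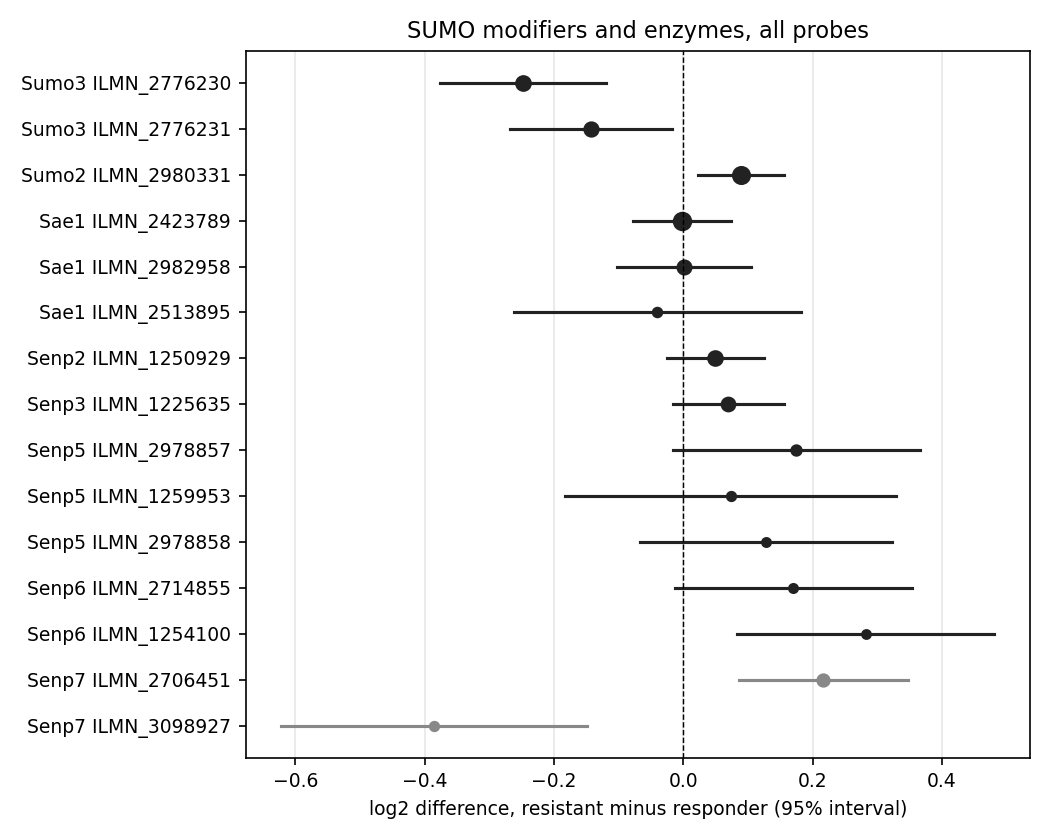
Log2 difference, resistant minus responder (horizontal axis), with its 95% interval for all 13 member probes (black) and for both probes of Senp7, a further SUMO protease (grey). Larger points are brighter probes. Both Sumo3 probes lie to the left of 0, the Senp probes of the members lie to the right, and the Senp7 probes lie on opposite sides.

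At an unadjusted p under 0.05, 4 of the 13 probes were counted, beside 7.55% of all 12588 probes. They were both Sumo3 probes, lower, and Sumo2 and the dimmer Senp6 probe, higher. Of all probes, 3.3% were counted as lower and 4.25% as higher. Adjusted over all probes, limma called 0 of the 13, beside 0.00794% of all probes, which is 1 probe. With 1 probe for each gene, the brightest, 5 of the 7 genes lay higher and 2 lower. Of all 8841 genes, 4851 lay higher and 3990 lower. The median log2 difference was 0.07 for the 7 genes, beside 0.0084 over all genes. The members were picked with this contrast in view, so nothing is read from these counts.

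How far Sumo3 lay from each other member was measured within each mouse, with the brightest probe of each gene. The Sumo3 signal minus that of Sumo2 averaged -2.05 ± 0.24 in resistant mice and -1.71 ± 0.15 in responders (log2, mean ± SD, 15 mice per group). It ran from -2.62 to -1.66 in resistant and from -2.07 to -1.55 in responder mice, and all 15 resistant mice lay below the responder median of -1.64. The levels of different probes cannot be compared with each other, but the shift between groups can, and it was -0.34 with an SE of 0.07.

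Against the other genes the same shift was -0.25 (SE 0.08) for Sae1, -0.30 (SE 0.07) for Senp2, -0.32 (SE 0.08) for Senp3, -0.42 (SE 0.13) for Senp5 and -0.42 (SE 0.12) for Senp6. Set against the mean of all 6 other genes, it was -0.34 (SE 0.08), and 14 of 15 resistant mice lay below the responder median. With the second Sumo3 probe the shifts were smaller, at -0.23 (SE 0.08) against Sumo2 and against the mean of the 6 other genes, -0.14 (SE 0.08) for Sae1 and -0.19 (SE 0.07) for Senp2, and from -0.32 to -0.21 for Senp3, Senp5 and Senp6. All these shifts lay below 0 for both Sumo3 probes. No test was made of them, because Sumo3 was chosen for its difference in the same mice.

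**Figure D3:**
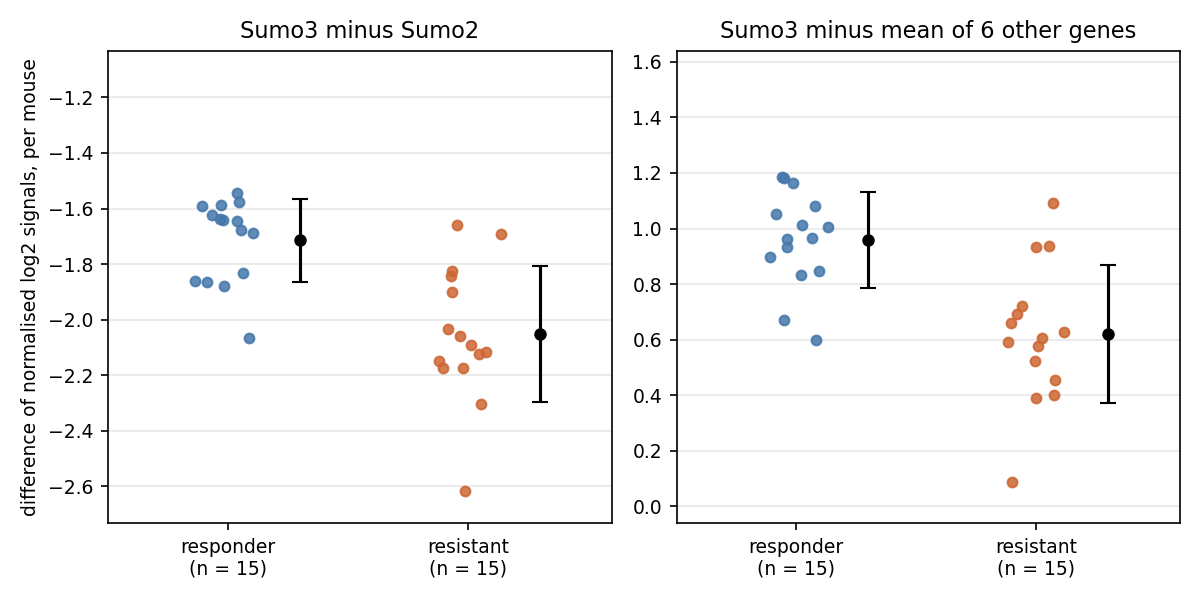
Sumo3 signal minus the Sumo2 signal (left) and minus the mean of the 6 other member genes (right), on the vertical axis in log2 units, for each of 15 responder and 15 resistant mice. Points are mice and black marks give the mean and SD. The means are -1.71 and -2.05 on the left, and 0.96 and 0.62 on the right, for responder and resistant mice.

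A measure that does not use the difference between groups is how the members vary among mice of one group. Sumo3 varied more than its paralog. The within-group SD was 0.18 for the brighter Sumo3 probe and 0.09 for Sumo2. Among 1330 probes of like level (within 0.5 on the log2 scale), 78.9% had a smaller SD than that Sumo3 probe, while 19.7% of 476 such probes had a smaller SD than Sumo2. Senp2 and Senp3 also varied little, with 9.87% and 16.3% of probes of like level below them. By the brightest probe this share was 8.71% for Senp6, 48.7% for Sae1 and 59.6% for Senp5. The dimmer Senp5 probes differed, at 78.1% and 15.1%, so a spread as high as that of Sumo3 was also seen on a probe of another member.

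The Sumo3 probes tracked each other across mice. Pearson's r between them was 0.91 over the 15 resistant mice (permutation p = 1e-05, the smallest that 100000 resamples can give, adjusted p = 4e-05) and 0.65 over the 15 responders (permutation p = 0.00954, adjusted p = 0.0191). Spearman's rho was 0.91 (permutation p = 2e-05, adjusted p = 8e-05) and 0.64 (permutation p = 0.0119, adjusted p = 0.0238). With the 2 mice most distant from the median left out, r was 0.82 and 0.52. These p-values are adjusted over 4 relations, which include the Senp7 probe pair described below.

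By the brightest probe of each gene, no relation of Sumo3 with another member passed the permutation test. There were 12 such relations, those of Sumo3 with each of the 6 other genes in each group. Their r ran from -0.44 to 0.33, 0 passed after adjustment (lowest adjusted p = 0.616), and 0 had an unadjusted permutation p under 0.05. The dimmer member probes were not tested. The dimmest Senp5 probe gave r = 0.38 in resistant and 0.53 in responder mice, against -0.44 and -0.14 for the brightest Senp5 probe. With Sumo2, r was -0.19 in resistant mice (rho -0.24, permutation p = 0.509 and 0.395) and 0.27 in responder mice (rho 0.30, permutation p = 0.336 and 0.267). With the 2 mice most distant from the Sumo2 median left out, r was -0.24 and 0.13. Under median scaling r in responders was 0.60 with Sumo2 and 0.61 with Senp2, and again 0 relations passed after adjustment.

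**Figure D4:**
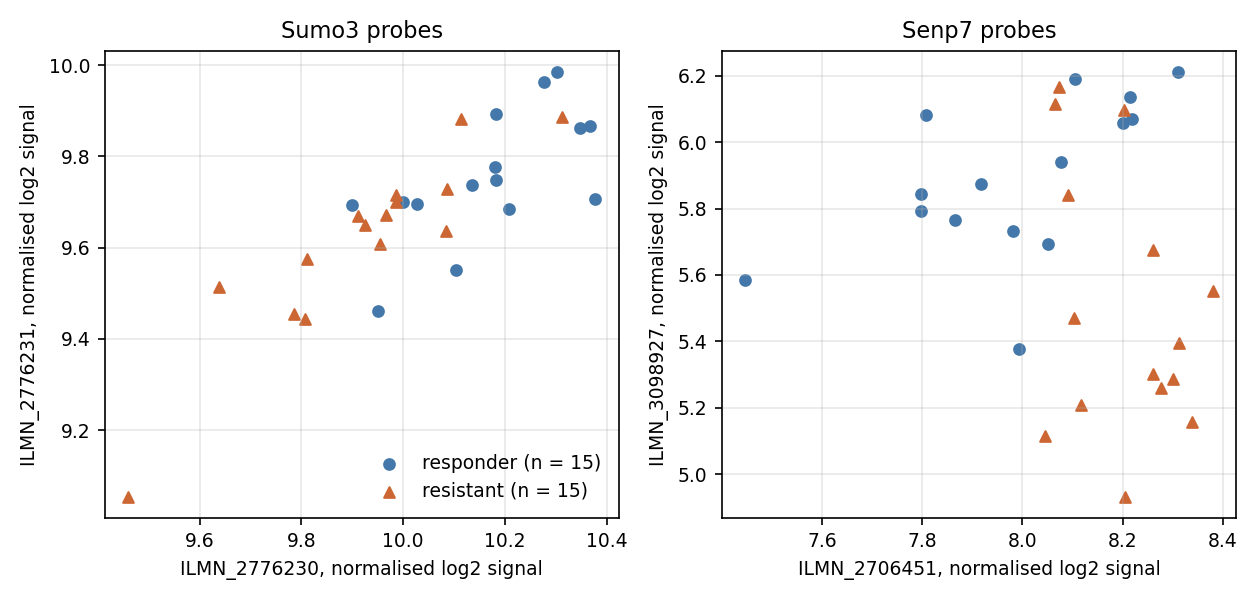
Left, the second Sumo3 probe (vertical axis) against the brighter one (horizontal axis). Right, the dimmer Senp7 probe against the brighter one. Axes are normalised log2 signals, circles are the 15 responder mice and triangles the 15 resistant mice. The Sumo3 probes rise together within each group (r = 0.65 in responders and 0.91 in resistant mice). Their log2 differences between groups are unlike in size, at -0.25 on the brighter and -0.14 on the second probe. For the Senp7 probes r is 0.58 in responders and -0.34 in resistant mice, which gather at the lower right.

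The genes most like Sumo3 were found by the correlation of signals over the 30 mice after subtraction of each group's mean, a description over mice that share arrays and normalisation. Closest was Atp6ap2, an accessory subunit of the vacuolar proton pump, with r = 0.86, ahead of the second Sumo3 probe at 0.82. It was followed by Tsc22d1, a leucine zipper protein (0.80), Ndufaf7, an assembly factor of respiratory complex I (0.80), Mrpl9, a mitochondrial ribosomal protein (0.77), and Polr1d, a subunit of RNA polymerases (0.76). The log2 differences of these 5 genes between groups ran from -0.14 for Atp6ap2 (SE 0.07, limma adjusted p = 0.653) to -0.04 for Polr1d (limma adjusted p = 0.91).

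Least like Sumo3 were the glutamate transporter Slc1a2 (r = -0.67), the pacemaker channel Hcn2 (-0.67), the phosphatase subunit Ppp6r3 (-0.65), Arhgap22 (-0.64) and the receptor Robo4 (-0.63). Each gene was placed by its kept probe with the most extreme r, which for Slc1a2 was not its brightest. For 90% of the kept probes r lay between -0.34 and 0.39, and the member probes of other genes lay between -0.30 and 0.43. The neighbouring genes of Sumo3 on the chromosome, by the RefSeq table of assembly GRCm38.p6, were Pttg1ip, at a log2 difference of 0.0099 (SE 0.04), and Ube2g2, a ubiquitin-conjugating enzyme, at -0.03 (SE 0.09). Next to these, Itgb2 was detected on 3 arrays and was not tested, and Tspear was not analysed here.

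Further genes of the SUMO pathway were taken from a list of 23, of which 18 were measured. By the brightest probe, 3 were higher and 0 lower at an unadjusted p under 0.05, beside 7.61% of the 8841 genes in either direction. The limma fit called 0 after adjustment, as it did of all genes by their brightest probe (0%). The median log2 difference of the list was -0.0039, and 0.02 under median scaling. Rnf111 was not detected on enough arrays, and the other listed genes without a value were not analysed here.

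Senp7, which like Senp6 trims SUMO chains, had probes of opposite sign. Its brighter probe, ILMN_2706451, ran from 8.05 to 8.38 with a median of 8.21 in resistant mice and from 7.45 to 8.31 with a median of 7.99 in responders. All 15 resistant mice lay above the responder median, and in log2 units the groups differed by 0.22 (SE 0.06, limma adjusted p = 0.382). The dimmer probe, ILMN_3098927, ran from 4.93 to 6.17 with a median of 5.40 in resistant mice and from 5.38 to 6.21 with a median of 5.88 in responders.

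On that dimmer probe 12 of 15 resistant mice lay below the responder median and 7 below the lowest responder. In log2 units the groups differed by -0.39 (SE 0.12, limma adjusted p = 0.387). It was detected on 12 resistant and 15 responder arrays, and in the authors' processed values its difference was -0.12 and that of the brighter probe 0.15. The platform annotation ties the probes to different transcripts of Senp7, and their sequences were not used here. Across mice the Senp7 probes gave r = -0.34 in resistant mice (rho -0.26, permutation p = 0.205 and 0.349, adjusted p = 0.205) and 0.58 in responders (rho 0.61, permutation p = 0.0226 and 0.0185, adjusted p = 0.0301). With the 2 mice most distant from the median left out, r was -0.04 and 0.68.

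Among the remaining proteases, Senp1, which matures SUMO precursors, lay at -0.11 (SE 0.11). Desi1, of a separate family of SUMO proteases, lay at 0.10 (SE 0.04, limma adjusted p = 0.605), and its relative Desi2 at -0.0071. Of the ligases of the Pias family, Pias1 lay at -0.05, Pias2 at 0.03, Pias3 at -0.00066 and Pias4 at -0.09, with SE from 0.04 to 0.07. Ranbp2, the ligase of the nuclear pore, lay at 0.15 (SE 0.08).

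Of the other ligases and cofactors, Mul1 had an unadjusted p under 0.05. Nsmce2, the ligase of the SMC5 and SMC6 complex, lay at 0.01, Topors at -0.03, the chromatin corepressor Trim28 at -0.02, Zmiz1 at -0.11, Zmiz2 at 0.03 and Zfp451, which extends SUMO chains, at -0.11. Rwdd3, which aids conjugation, lay at 0.04, and Rnf4, a ubiquitin ligase that recognises SUMO chains, at -0.0074. Mul1, an outer mitochondrial membrane ligase described for both ubiquitin and SUMO, had the widest difference. It read 7.86 ± 0.71 in resistant against 6.89 ± 0.56 in responder mice, or 0.98 (SE 0.22, limma adjusted p = 0.163). These means do not describe a graded shift, since no mouse lay between 7.00 and 7.96. Mice of both groups lay on either side of that gap, with medians of 8.21 in resistant and 6.81 in responder mice. Within sample numbers 1 to 16 of the labels the Mul1 difference was 0.69 (limma adjusted p = 0.783), and within 17 to 30 it was 1.30 (limma adjusted p = 0.0452). In the authors' processed values it was 0.59 (limma adjusted p = 0.133).

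Ubiquitin and the other ubiquitin-like systems gave 13 measured genes. By the brightest probe, 2 were higher and 0 lower at an unadjusted p under 0.05, beside 7.61% of all genes in either direction. The median log2 difference was 0.05, and 0.09 under median scaling. The 2 genes were Atg12, a modifier of autophagy, at 0.10 and Uba3, which activates NEDD8, at 0.12. Urm1 lay at 0.09 and Atg7 at 0.10, and neither passed an unadjusted p of 0.05 (p = 0.192 and 0.175). Ufsp2, a protease of the modifier UFM1, is named after its values were seen: a dimmer probe lay at -0.14 (limma p = 0.0116, adjusted p = 0.55), while its brightest probe lay at 0.0075.

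Of 19 measured genes whose proteins are known SUMO targets, 0 had an unadjusted p under 0.05 in the limma fit by the brightest probe, beside 7.61% of all genes. The median was -0.0060, and 0.02 under median scaling. Nearest were the cannabinoid receptor Cnr1 at -0.30 (p = 0.0743), the glutamate receptor Grm7 at 0.14 (p = 0.0877), Rangap1, the first SUMO target described, at -0.06 (p = 0.0879) and the potassium channel Kcnq3 at 0.20 (p = 0.0892).

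Markers of other cell types were set beside the groups, and none passed the adjusted threshold. By the brightest probe, 4851 of all 8841 genes lay higher in resistant mice and 3990 lower. Of 10 choroid plexus markers measured, 10 lay lower in resistant mice, among them Calml4 at -0.87, Aqp1 at -1.07, Cldn2 at -0.91 and Kl at -0.73, with SE from 0.45 to 0.64 and 0 of the 10 at an unadjusted p under 0.05 by the brightest probe. Their mean ran from 5.36 to 9.87 in resistant and from 5.86 to 10.59 in responder mice, and Ttr, the defining marker, was detected on 30 arrays. The dimmest kept Aqp1 probe, detected on 16 arrays, lay at -0.82 (limma p = 0.0279, adjusted p = 0.631). Of 12 oligodendrocyte markers 10 lay higher, among them Ugt8a at 0.38, Fa2h at 0.19 and Cldn11 at 0.17, while Gjb1 lay at -0.23, and 1 of the 12, Ugt8a, had an unadjusted p under 0.05 (limma adjusted p = 0.31). Their mean ran from 10.17 to 11.00 in resistant and from 9.66 to 10.66 in responder mice. Those counts use the brightest probe. Mbp is named after its values were seen: its dimmest probe lay at 0.08 (limma p = 0.0465, adjusted p = 0.657). Of 6 ependymal markers 5 lay lower, with a median of -0.33, while Foxj1 lay at 0.24 (SE 0.13). Single markers in other lists, named after their values were seen, had an unadjusted p under 0.05. These were the ependymal Tekt1 at -0.53, the striatal Ppp1r1b at -0.34, the neocortical Rorb at -0.21 and the endothelial Emcn at -0.15. Their limma adjusted p ran from 0.397 to 0.657. By the brightest probe, of 6 striatal markers 4 lay higher and 2 lower, with a median of 0.03. Of 4 neocortical markers 2 lay higher and 2 lower, with a median of 0.00059. Of 6 endothelial markers 2 lay higher and 4 lower, with a median of -0.07. The Sumo3 difference was -0.26 with the choroid plexus mean as a covariate and -0.23 with the oligodendrocyte mean.

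Hippocampal markers were present: Prox1, C1ql2, Wfs1, Fibcd1 and Neurod2 were detected on 30 arrays each, Neurod6 on 12 and Calb1 on 0. Over 26 relations of Sumo3 with 10 marker lists and 3 array measures within groups, 0 passed after adjustment and 3 had an unadjusted permutation p under 0.05. All of these were in resistant mice, and the smallest was with the sample number of the labels (r = -0.63, rho -0.58, permutation p = 0.0103 and 0.0248, adjusted p = 0.188). With the 2 mice most distant from the median left out, r with the sample number was -0.34. The others were the mean of the astrocyte markers (r = -0.62, rho -0.55, permutation p = 0.0144 and 0.0378, adjusted p = 0.188) and of the oligodendrocyte markers (r = -0.58, rho -0.65, permutation p = 0.0269 and 0.0107, adjusted p = 0.233). With the 2 mice most distant from each median left out, r was -0.64 and -0.56. Their part in the Sumo3 difference was not tested beyond the covariates above.

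Sample numbers alternate between the groups, so the comparison can be made within parts of the numbering. Within sample numbers 1 to 16 the Sumo3 difference was -0.15 (SE 0.06), and within 17 to 30 it was -0.35 (SE 0.10), with limma adjusted p of 0.768 and 0.636. The corresponding values for Sumo2 were 0.06 (SE 0.04) and 0.12 (SE 0.04). Whether the parts differ was not tested. Each array detected between 12330 and 13223 probes, and no arrays held identical values.

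**Figure D5:**
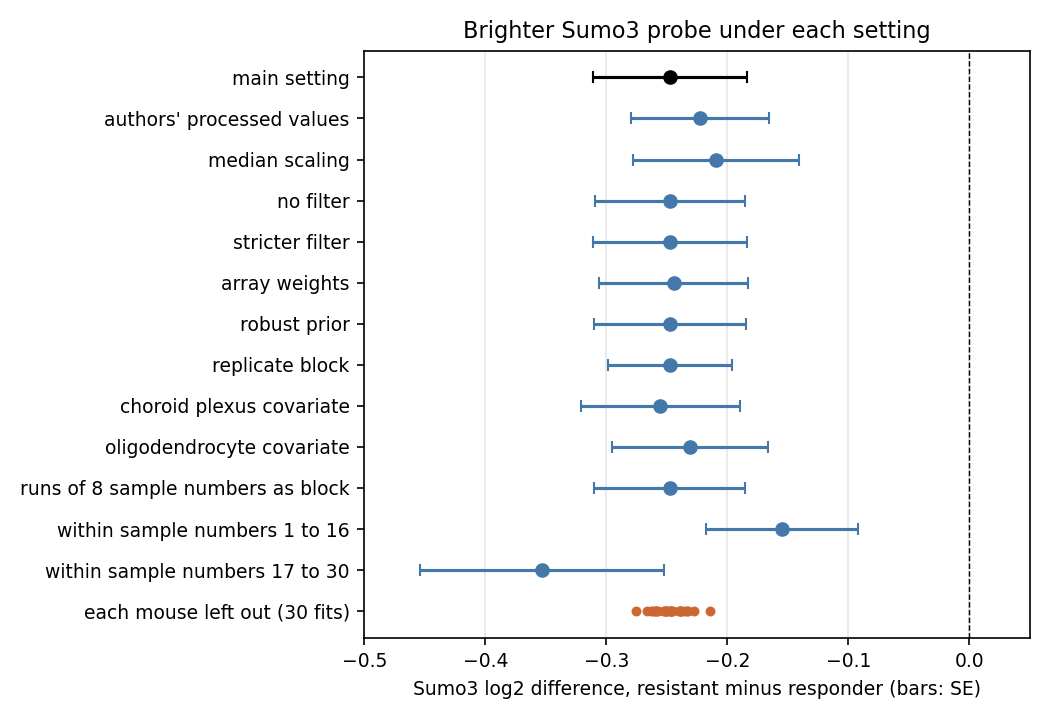
Log2 difference of the brighter Sumo3 probe, resistant minus responder (horizontal axis), in the main setting (black), in 12 alternative settings (blue, bars give the SE) and with each of 30 mice left out in turn (orange points). All values lie below 0, from -0.35 to -0.15 over the settings and from -0.28 to -0.21 with single mice left out.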

How the data were processed

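Hippocampal RNA of 30 mice was measured on single-colour Illumina arrays. The authors deposited log2 signals named as not normalised, with a detection p-value per probe and array, and processed log2 values. The latter equal the former after quantile normalisation to within 6e-09. The submitters' processing notes name lumi, with no version or role.

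Here the signals were corrected and normalised with neqc (offset 16) in limma 3.58.1 (R 4.3.3). Probes with detection p under 0.05 on at least 15 arrays were kept, 12588 in all. Genes came from the platform annotation (23978 probes with 1 symbol, 1719 with none), and 23962 probes matched RefSeq by Entrez identifier. Groups were compared with lmFit and a trended eBayes, and p-values adjusted by the Benjamini-Hochberg method over all kept probes. The number of arrays limits the precision, with a median SE of 0.07. Correlations within groups used two-sided permutation tests (100000 resamples, numpy 2.4.6).

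The members and lists were chosen with earlier results of these data known. All member probes and the further SUMO pathway genes are named. Of the ubiquitin-like, SUMO target, choroid plexus and oligodendrocyte lists, the 4 genes with the smallest p are named. Markers of the ependymal, striatal, neocortical and endothelial lists are named where the unadjusted p was under 0.05, and Foxj1 for its opposite sign. Alternatives were the authors' values, median scaling, other filters, array weights, a robust prior, blocks, covariates and left-out mice. Nothing in the labels says how the replicate numbers were assigned.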

Additional observations from a re-analysis of the deposited data

How the results depend on the processing

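The Sumo3 difference kept its direction and did not pass the adjusted threshold in any of 12 alternatives, where it ran from -0.35 to -0.15 with limma adjusted p from 0.174 to 0.768. With each mouse left out it ran from -0.28 to -0.21 (adjusted p from 0.155 to 0.454). The shift of Sumo3 against the mean of the other members ran from -0.47 to -0.23 in 9 alternatives, 1 of them, the second Sumo3 probe, chosen after seeing the data, and from -0.37 to -0.30 with each mouse left out. No member probe passed in any of these settings. The number of other member probes at an unadjusted p under 0.05, 2 in the main setting, was 4 with median scaling, 1 with the stricter filter (9423 probes, which leaves out 5 of the member probes) and 1 within sample numbers 1 to 16. It ran from 2 to 4 with each mouse left out, and was 4 without resistant replicate 5 or responder replicate 10. All probes at that threshold numbered 951 and, with no filter, 1485, since 25697 were tested. They split into 535 higher and 416 lower (56.3% higher), and with median scaling into 924 and 229 (80.1%), where the median of all probes lay at 0.03 and the second Sumo3 probe at -0.10 (p = 0.131).

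Signs changed for values near 0, and the cause was not tested. The brightest Sae1 probe lay at 0.040 with median scaling, 0.011 with the oligodendrocyte covariate and 0.022 within sample numbers 1 to 16, and from -0.014 to 0.017 with single mice left out. The second Sae1 probe lay at -0.013 with the choroid plexus covariate and -0.10 within numbers 17 to 30, and from -0.013 to 0.030 with single mice left out. The dimmest lay at 0.13 within numbers 1 to 16 and from -0.081 to 0.0032 with single mice left out. Senp2 lay at -0.019 within numbers 1 to 16, and a dimmer Senp5 probe at -0.027 within 17 to 30. With median scaling, r of Sumo3 was 0.196 (resistant) and 0.115 (responder) with Sae1 and 0.037 and 0.143 with Senp6.

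With the replicate number as a block the Sumo3 difference stayed at -0.25 (SE 0.05, limma adjusted p = 0.174), and no adjusted call on a member changed. That block moved all probes at an unadjusted p under 0.05 from 951 to 1130. The labels do not say that the numbers pair the mice. Deviations from the group means correlated from -0.32 to 0.28 over 15 same-numbered pairs, over 0.1 in 8 of them. Mice of different numbers were not compared in this way, so these values cannot decide whether the numbers pair the mice. The number was left out of the main fit because no pairing is stated.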
